A study of Mus musculus with 8 samples.

Results

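Immunoglobulin gene segments were followed in RNA of whole esophagus from 8 mice. The members were all identifiers in the count table that GENCODE M21 (GRCm38) annotates as immunoglobulin variable (V), diversity (D), joining (J) or constant (C) genes and that held at least 10 counts over the 8 libraries. Of 264 annotated segments among 49315 identifiers, 193 met the rule. The heavy chain locus on chromosome 12 (113254830 to 116000461) gave 96 members, of which 85 were V, 4 were J and 7 were C segments. None of the 19 D segments reached 10 counts. The kappa locus on chromosome 6 (67555497 to 70726966) gave 83 V, 5 J and 1 C segment, and the lambda locus on chromosome 16 (19061618 to 19260859) gave 3 V, 2 J and 3 C segments. The threshold fell between Ighv1-71 and Ighv8-2, each with 9 counts and left out, and Ighv1-37 and Ighv1-20, with 10 and 11 counts and kept. Ighe, the constant gene of IgE, stayed outside the rule with 2 counts, both in EoE33 replicate 4.

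The EoE33 group held 4 male transgenic mice that overexpress IL-33, an alarmin cytokine, in the esophagus. The control group held 4 male wild type littermates. All mice were on the C57BL/6J strain and 8 weeks old. The study concerns eosinophilic esophagitis and compared the transcripts of the 2 genotypes; the promoter of the transgene is not given in the sources used here. In counts per 1000000 counts of the scaled library (CPM), Il33 was at 99.7 to 165 in wild type and at 354 to 393 in EoE33. The 4 wild type libraries held 655, 490, 9827 and 5391 immunoglobulin counts and the 4 EoE33 libraries 81488, 136692, 88497 and 59308, and the smallest library of the series had a total of 17726292 counts and the largest of 24070822. A pair of wild type libraries stood apart in markers of other tissues: 10 airway markers summed to 1166 CPM in wild type replicate 3 and to 2.34 to 8.77 CPM in the other 7 libraries, and 5 liver markers summed to 143 CPM in wild type replicate 1 and to 0.643 to 10.7 CPM elsewhere. All 7 markers of esophageal epithelium were present in every library, and 4 were called higher (Krt5, Krt14, Trp63 and Sox2) and 3 lower (Krt13, Krt4 and Pax9); summed, they averaged 72228 ± 16354 CPM over the wild type libraries and 41207 ± 8079 CPM (SD, n = 4 each) over those of EoE33. What part these shifts have in the results was not tested. Over all genes, 31.3% of the 16760 tested were called higher in EoE33 and 32.1% lower (edgeR quasi-likelihood test, adjusted p under 0.05).

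An antibody consists of paired heavy and light chains. In each developing B cell, 1 V, 1 J and, in the heavy chain, 1 D segment are joined, and all descendants of that cell carry the same joined segments. The constant segment sets the isotype: naive B cells carry IgM and IgD on their surface, and plasma cells, the terminally differentiated B lineage cells, secrete IgM, IgG, IgA or IgE in quantity. Secreted IgM and IgA are held together by the joining chain encoded by Jchain, which is no immunoglobulin segment itself. Mucosal tissues harbour plasma cells, and transcripts of secreted immunoglobulin are among the most abundant RNAs of such cells. In RNA of a bulk tissue, a change in the number of cells of a type and a change in RNA per cell cannot be told apart.

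The germline segments that the results turn on are shown first, from the GENCODE M21 transcripts of the C57BL/6J reference (GRCm38). They are reference sequences, not the rearranged and possibly mutated copies in these mice. The last 60 bases of a V segment hold the codon of the conserved cysteine that closes its immunoglobulin fold, printed in capitals (TGT or TGC), and the start of the junction that varies between antibodies. These segments were among the highest of their locus in at least 1 EoE33 library or belong to a pair of segments described below. The heavy chain segments lie on the minus strand.
Ighv7-1 (chr12:113896408-113896467): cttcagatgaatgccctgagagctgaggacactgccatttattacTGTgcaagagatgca
Ighv7-3 (chr12:114153180-114153239): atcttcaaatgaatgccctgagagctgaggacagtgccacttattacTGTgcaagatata
Ighv1-82 (chr12:115952538-115952597): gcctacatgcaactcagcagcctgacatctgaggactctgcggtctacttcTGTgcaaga
Ighv4-1 (chr12:113948282-113948341): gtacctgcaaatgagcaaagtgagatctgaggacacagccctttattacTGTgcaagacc
Ighv11-2 (chr12:114048241-114048300): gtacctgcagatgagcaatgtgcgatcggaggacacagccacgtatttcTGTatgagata
Of the light chain segments, Igkv15-103, Igkv16-104 and Igkv14-126 lie on the plus strand and Igkv4-57, Igkv12-44 and both lambda segments on the minus strand.
Igkv15-103 (chr6:68437866-68437925): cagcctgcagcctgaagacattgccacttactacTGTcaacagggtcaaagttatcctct
Igkv16-104 (chr6:68426013-68426072): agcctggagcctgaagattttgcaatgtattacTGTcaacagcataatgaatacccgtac
Igkv4-57 (chr6:69575975-69576034): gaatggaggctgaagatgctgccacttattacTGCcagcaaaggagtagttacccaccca
Igkv12-44 (chr6:69814631-69814690): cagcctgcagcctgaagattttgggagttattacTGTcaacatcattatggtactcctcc
Igkv14-126 (chr6:67896583-67896642): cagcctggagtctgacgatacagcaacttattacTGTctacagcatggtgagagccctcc
Iglv1 (chr16:19085017-19085076): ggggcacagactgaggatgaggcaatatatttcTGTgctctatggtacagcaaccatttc
Iglv2 (chr16:19260401-19260460): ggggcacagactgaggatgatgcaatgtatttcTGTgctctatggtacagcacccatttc

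The 4 heavy chain J segments, all minus strand, are shown whole because Ighj1 had the highest mean level among them in EoE33. Each is the whole segment in 1 annotated transcript. Capitals mark the codon of the conserved tryptophan and the bases that follow it (TGGGG).
Ighj1 (chr12:113429781-113429833): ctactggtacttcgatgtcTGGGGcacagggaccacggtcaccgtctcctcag
Ighj2 (chr12:113429468-113429515): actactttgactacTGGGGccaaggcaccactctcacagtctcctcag
Ighj3 (chr12:113429085-113429132): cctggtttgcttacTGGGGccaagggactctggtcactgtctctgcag
Ighj4 (chr12:113428514-113428567): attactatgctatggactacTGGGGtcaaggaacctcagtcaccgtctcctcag
Over their coding bases, Iglv1 and Iglv2 were 96.9% identical, Ighv1-82 and its nearest member Ighv1-80 95.4%, Igkv4-57 and Igkv4-55 94.9%, and Ighv7-1 and Ighv7-3 89.0%. Igkv15-103 reached only 74.6% with its nearest member. Of the 193 members, 7 shared over 50% of their 75-base windows with another gene, 61 shared none, and 11 J segments were shorter than a window. Counts of near-identical segments may be split between them, because how multiply matching reads were handled is not given in the sources used here.

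Immunoglobulin transcripts were higher in every EoE33 library than in any wild type library. Summed over the 193 members they stood at 27.8, 21.5, 415 and 231 CPM in wild type replicates 1 to 4 and at 3885, 7989, 3813 and 2957 CPM in EoE33 replicates 1 to 4. The group means of 174 ± 188 and 4661 ± 2258 CPM (SD, n = 4 each) differ 26.8-fold (49.97-fold without wild type replicate 3), and the lowest EoE33 library lay 7.12-fold above the highest wild type library. As a share of all counts the members took 0.00213% to 0.0408% in wild type and 0.287% to 0.771% in EoE33. Wild type replicates 3 and 4 stood apart from replicates 1 and 2, and the highest wild type library held 19.3 times the lowest. The same 2 libraries lay above replicates 1 and 2 in 131 of the 193 members, against 15.9% of all genes tested. They did so in 16 of 17 genes of a B cell list, 9 of 13 of a plasma cell list and 6 of 10 T cell genes. In the other gene lists described below the share ran from 0% (germinal centre and class switching) to 52.4% (B and plasma cell survival and homing). What part the other cells of these libraries have in their immunoglobulin level was not tested.

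Of the 193 members, 104 passed the filter on low counts, and 85 of them were called higher and 0 lower in EoE33, beside 31.3% of all genes called higher. At an unadjusted p under 0.05, 0 of them were lower, and limma-voom and DESeq2 also called 0 lower. The tested members had a median log2 fold change of 4.70, from -0.73 for Ighd to 8.46 for Ighv13-2, and all genes tested had a median of -0.01. Of the 104 tested members, 33 exceeded the filter's 0.45 CPM in no wild type library and 67 in 1 to 3 of them, so most passed through EoE33 and their count describes the members without supporting a direction. Fitted without the filter, 110 of all 193 members were called higher and 0 lower, beside 17.5% of 31222 genes higher. The 2 groups did not overlap, with EoE33 higher, in 76 of the 104 tested members (103 of all 193), and with EoE33 lower in 0. Among all genes tested the shares were 29.6% and 29.9%. Because most members met the rule and the filter through EoE33, this count too is a description only. Of the 89 members not tested, 19 had no count in wild type. The one with the most counts in EoE33, Ighv1-63, had 160, at least 61.3-fold above a floor of 3 counts over the wild type group. Of these counts 144 lay in EoE33 replicate 3, and without it the bound was 8.57-fold.

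**Figure D1:**
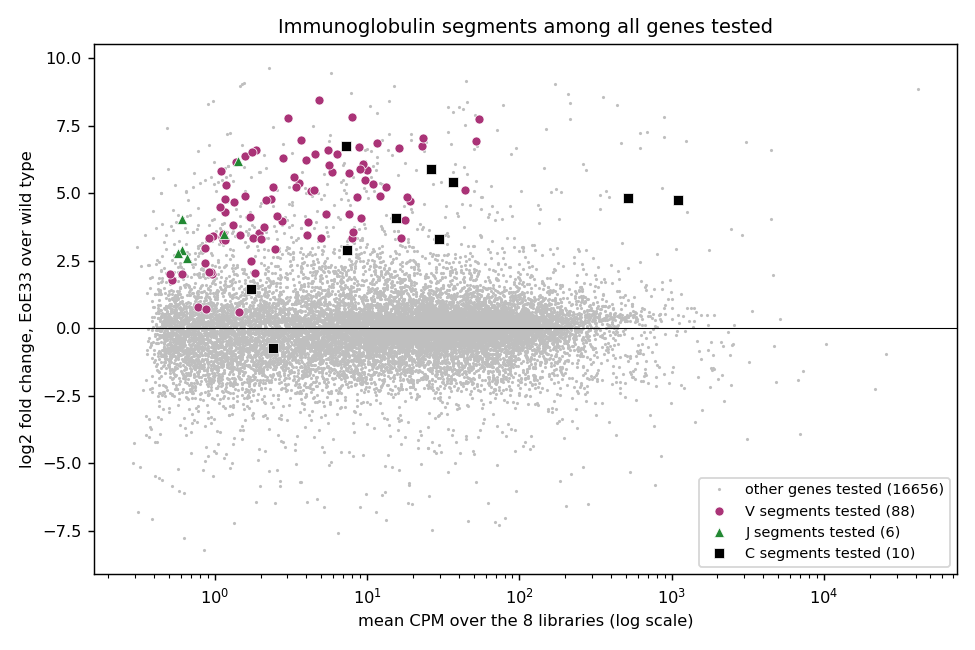
Log2 fold change of EoE33 over wild type (vertical axis) against mean CPM over the 8 libraries (horizontal, log scale) for all 16760 genes tested. Coloured symbols are the 88 V, 6 J and 10 C segments that passed the filter; 103 of these 104 lie above 0, and Ighd, at -0.73, is the black square below it.

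The heavy chain constant genes showed IgM as the main isotype in both groups. Ighm, which encodes the IgM heavy chain, stood at 16.3, 10.7, 190 and 101 CPM in wild type replicates 1 to 4 and at 1709, 3693, 1758 and 1394 CPM in EoE33 replicates 1 to 4. EoE33 replicate 2 was the highest, and the groups did not overlap. Ighm rose 26.9-fold (log2 fold change 4.75 ± 1.02 (SE), edgeR adjusted p = 0.00439; 5.67 without wild type replicate 3). Igha, the constant gene of IgA, the antibody exported across mucosal epithelia, stood at 0.551, 1.27, 14.8 and 5.005 CPM in wild type and at 57.5, 94.3, 35.1 and 27.2 CPM in EoE33. It rose 9.84-fold without overlap (log2 fold change 3.30 ± 0.90 (SE), edgeR adjusted p = 0.0132; 4.57 without wild type replicate 3).

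The IgG subclass genes Ighg2b and Ighg3 rose as well. Ighg2b stood at 0.212, 0.219, 0.338 and 2.65 CPM in wild type and at 109, 67.6, 15.8 and 14.1 CPM in EoE33, a 59.9-fold rise (log2 fold change 5.90 ± 1.08 (SE), edgeR adjusted p = 0.00203; 7.62 without wild type replicate 4, 5.23 without EoE33 replicate 1). Ighg3 stood at 0 to 0.296 CPM in wild type and at 28.4, 14.2, 7.71 and 6.93 CPM in EoE33, a 107-fold rise (log2 fold change 6.74 ± 0.76 (SE), edgeR adjusted p = 0.000111; 7.55 without wild type replicate 3). Both were highest in EoE33 replicate 1, whereas Ighm was highest in replicate 2. Ighg1, the IgG1 gene, varied most between EoE33 mice, at 10.1, 15.2, 1.34 and 0.0997 CPM, and its groups overlapped. With 8 wild type and 505 EoE33 counts, it did not pass the filter.

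Ighg2c and Ighd were the only tested constant genes without a call. Ighg2c, the IgG2c gene that C57BL/6 mice carry in place of IgG2a, stood at 0.466 to 1.80 CPM in wild type and at 3.58, 4.27, 2.11 and 0.249 CPM in EoE33 (log2 fold change 1.46 ± 0.72 (SE), edgeR adjusted p = 0.109). EoE33 replicate 4 alone lay below wild type, and without it the log2 fold change was 1.84 with a call (edgeR adjusted p = 0.00953). Ighd, which encodes the heavy chain of the IgD on naive B cells, stood at 0.339, 0.0877, 3.08 and 8.47 CPM in wild type and at 1.48, 4.21, 0.733 and 0.947 CPM in EoE33. The groups overlapped throughout (log2 fold change -0.73, 95% interval -3.39 to 1.93, edgeR adjusted p = 0.601), and the sign turned to 0.62 without wild type replicate 4 and to 0.46 with limma-voom.

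**Figure D2:**
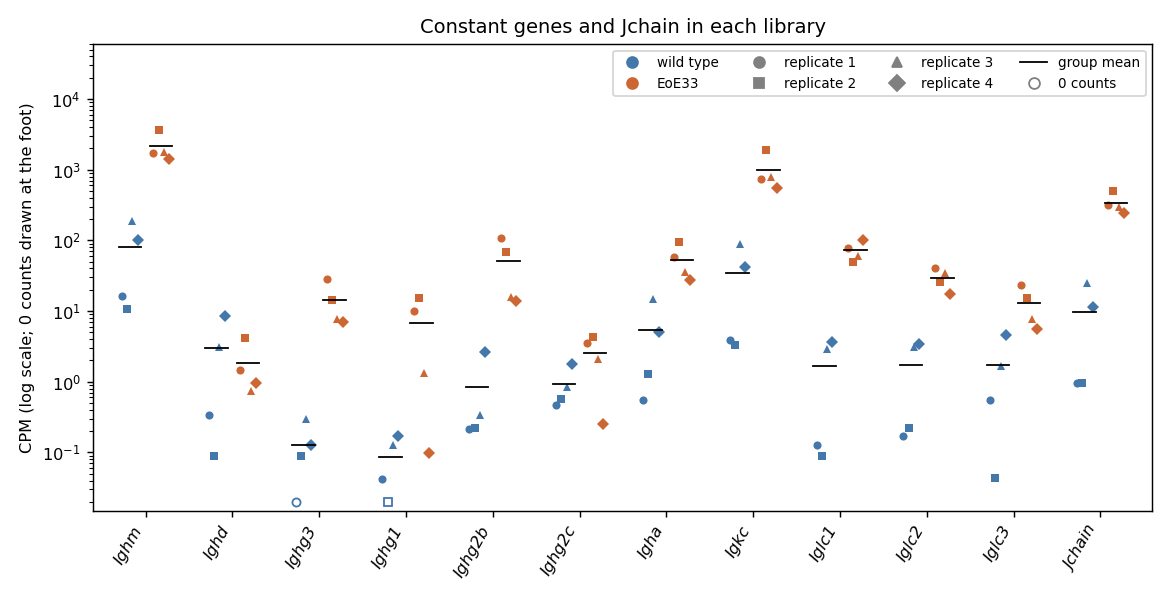
CPM (log scale) of the 11 constant genes that met the rule and of Jchain in each library; symbol shapes give the replicate, black bars the group means, and open symbols at the foot 0 counts. For Ighm, Igkc and Jchain the groups do not overlap, with EoE33 higher, and for Ighd the groups overlap.

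Set against Ighm in the same library, Ighd, Ighg2c and Igha took a smaller part in EoE33. Per 100 Ighm counts there were 2.08, 0.82, 1.62 and 8.42 Ighd counts in wild type replicates 1 to 4 and 0.087, 0.11, 0.042 and 0.068 in EoE33 replicates 1 to 4. The mean ratio was 31.9-fold lower in EoE33, and between 20.8-fold and 42.1-fold lower when each library was left out in turn. Ighg2c per Ighm was 21.9-fold lower (13.3-fold without EoE33 replicate 4 and 35.4-fold without wild type replicate 3) and Igha per Ighm 2.65-fold lower, again without overlap. For Igha the groups all but met, at 3.36 per 100 in EoE33 replicate 1 and 3.38 in wild type replicate 1. The latter rests on 13 Igha counts. Jchain per Ighm was higher in EoE33, at 13.6 to 18.3 per 100 against 5.97 to 13.1. Each of these 4 ratios gave p = 0.0286 in a two-sided exact permutation test, the smallest that 70 orderings of 4 against 4 can give, and an adjusted p of 0.0786 over the 11 ratios computed, which misses 0.05. The ratios of Ighg1, Ighg2b and Ighg3 to Ighm overlapped between the groups (exact permutation p = 0.743, 0.60 and 0.143).

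As shares of heavy constant counts, IgM took 82.7% to 91.0% in wild type and 89.0% to 96.6% in EoE33. IgD took 0.678% to 7.13% and 0.0402% to 0.108%. IgA took 3.07% to 9.83% and 1.88% to 2.99%, and all IgG genes together 0.766% to 6.78% and 1.48% to 7.88%. The highest IgG share in EoE33, 7.88% of 40243 counts, belonged to replicate 1, in which IgG2b alone made 5.69%. Wild type replicates 1 and 2 held only 423 and 295 heavy constant counts, so their shares are imprecise: 2 IgD counts of 295 give an exact 95% binomial interval of 0.0822% to 2.43%. Such intervals hold counting error alone, because the reads carry no molecular identifiers and may copy 1 molecule.

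**Figure D3:**
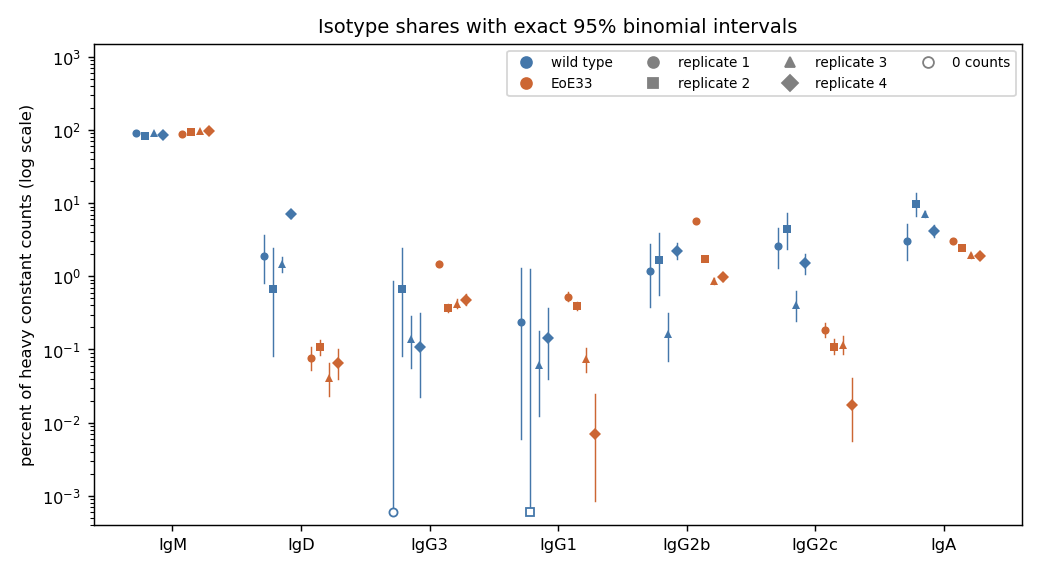
Share of each isotype in the heavy constant counts of each library (percent, log scale), with exact 95% binomial intervals as vertical lines and open symbols for 0 counts. The 4 EoE33 libraries lie below all wild type libraries for IgD, IgG2c and IgA, and overlap them for IgM, IgG3, IgG1 and IgG2b.

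Light chain constant genes rose at both loci. Igkc, the single kappa constant gene, stood at 3.86, 3.29, 89.3 and 42.4 CPM in wild type and at 742, 1895, 791 and 547 CPM in EoE33, a 28.6-fold rise (log2 fold change 4.84 ± 1.18 (SE), edgeR adjusted p = 0.00817; 5.93 without wild type replicate 3). Its pattern over the libraries followed that of Ighm, with 23.6 to 46.9 Igkc counts per 100 Ighm counts in wild type and 39.2 to 51.3 in EoE33. The 3 lambda genes Iglc1, Iglc2 and Iglc3 rose 42.6-fold, 17.1-fold and 7.54-fold. Iglc1 stood at 0.127, 0.0877, 2.92 and 3.59 CPM in wild type and at 78.8, 49.7, 59.9 and 100 CPM in EoE33 (log2 fold change 5.41, edgeR adjusted p = 0.000644; 6.09 without wild type replicate 4). Unlike Ighm and Igkc, it was lowest in EoE33 replicate 2 and highest in replicate 4. The call of Iglc3 (log2 fold change 2.91, edgeR adjusted p = 0.025; 4.08 without wild type replicate 4) ended at 0.0609, 0.055 and 0.0637 without wild type replicate 1, wild type replicate 3 and EoE33 replicate 1, and at 0.0748 without the filter on low counts and 0.089 with a replicate block.

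Lambda genes made 7.93% to 21.4% of light chain constant counts in wild type and 4.58% to 18.4% in EoE33, so the balance of the light chains overlapped between the groups. Within the lambda constant genes, Iglc1 made 15.0% to 37.9% in wild type and 54.6% to 81.2% in EoE33, without overlap. Wild type replicates 1 and 2 held only 20 and 8 lambda constant counts. Per kilobase of annotated exon, the order of mean levels in EoE33 was Igkc at 1868, Ighm at 1134, Iglc1 at 159, Iglc2 at 48.1, Iglc3 at 28.8, Igha at 20.1, Ighg2b at 19.3, Ighg3 at 5.69, Ighg1 at 2.58, Ighg2c at 1.92 and Ighd at 0.969 CPM per kilobase. Neighbours in this order overlapped in their EoE33 libraries, except Ighm with Iglc1 and Iglc1 with Iglc2.

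V segments were higher in EoE33 together with the constant genes. Heavy V segments summed to 15.8 ± 18.1 and 468 ± 195 CPM in wild type and EoE33, kappa V segments to 23.9 ± 28.2 and 695 ± 370 CPM, and lambda V segments to 3.15 ± 3.36 and 108 ± 14.1 CPM (SD, n = 4 each). The folds of these means were 29.6, 29.0 and 34.4. The first of them was 60.1 and the second 61.7 without wild type replicate 3, and the third 62.9 without wild type replicate 4. Per kilobase, kappa V segments were 0.933 to 1.02 times the level of Igkc in wild type and 0.944 to 1.13 times in EoE33. Heavy V segments were 0.569 to 0.974 times the level of the heavy constant genes in wild type and 0.987 to 1.16 times in EoE33, without overlap; wild type replicates 1 and 2 rest on 48 and 44 heavy V counts. Lambda V segments were 0.610, 2.17, 0.728 and 0.812 times the level of the lambda constant genes in wild type and 1.11 to 1.36 times in EoE33, and the groups overlapped. Of the heavy V members, 34 of 41 tested were called higher, with a median log2 fold change of 4.92, beside 31.3% of all genes. Of the kappa V members, 34 of 44 tested were called higher, with a median of 4.18. In wild type, 18 of these heavy V and 9 of these kappa V segments reached the filter's level in no library and 0 of either in all 4, so these counts are a description only. All 3 lambda V members were called higher: Iglv1, Iglv2 and Iglv3 rose 34.4-fold, 41.0-fold and 11.2-fold (log2 fold change 5.11, 5.36 and 3.49; 6.27 without wild type replicate 4, 6.61 without wild type replicate 3 and 5.07 without wild type replicate 4, and 2.71 for Iglv3 without EoE33 replicate 3).

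The V segments with the highest levels differed from mouse to mouse. Ighv7-1, a segment of the small S107 family, stood at 0.424, 0.132, 0.507 and 0.898 CPM in wild type and at 23.7, 224, 174 and 11.02 CPM in EoE33. EoE33 replicates 2 and 3 held most of it, and the groups did not overlap (217-fold, log2 fold change 7.76 ± 1.31 (SE), edgeR adjusted p = 0.00133; adjusted p = 0.0953 with limma-voom; log2 fold change 7.15 without EoE33 replicate 2). Its relative Ighv7-3 was more even in EoE33, at 34.9, 20.98, 10.3 and 37.8 CPM against 0.0424 to 2.28 CPM in wild type (37.2-fold, edgeR adjusted p = 0.00135; log2 fold change 5.22, or 7.33 without wild type replicate 3). Ighv1-82, of the large J558 family that lies farthest from the D segments, stood at 30.8, 25.1, 3.23 and 81.3 CPM in EoE33 and at 0.0424, 0.132, 4.23 and 0.385 CPM in wild type. Its groups overlapped through wild type replicate 3 and EoE33 replicate 3 (29.0-fold, edgeR adjusted p = 0.0118; log2 fold change 4.86, 7.53 when wild type replicate 3 was left out and 4.03 without EoE33 replicate 4), and it was not called with limma-voom or with a replicate block (adjusted p = 0.103 and 0.0718).

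Ighv6-3, Ighv6-6 and Ighv4-1 each peaked in a single EoE33 library. Ighv6-3 reached 50.5 CPM in EoE33 replicate 2 and 2.34 to 14.4 CPM in the other 3, and Ighv6-6 reached 42.1 CPM in replicate 1 and 4.09 to 13.1 CPM in the others. In wild type neither exceeded 0.770 CPM, and both rose (60.1-fold and 106-fold, edgeR adjusted p = 0.00675 and 0.0008). Leaving out 1 library moved the log2 fold change of Ighv6-3 from 5.91 to 4.58 (EoE33 replicate 2) and to 7.04 (wild type replicate 4), and that of Ighv6-6 from 6.73 to 5.84 (EoE33 replicate 1) and to 7.85 (wild type replicate 3). Ighv6-3 was not called with limma-voom (adjusted p = 0.0772). Ighv4-1 stood at 49.8 CPM in EoE33 replicate 1, at 3.45 to 6.08 CPM in the others and at 0.0428 to 0.0848 CPM in wild type (229-fold, edgeR adjusted p = 0.00227; log2 fold change 7.84, or 6.07 without EoE33 replicate 1). Ighv13-2 had the largest log2 fold change of the tested members, 8.46, on 2 wild type and 710 EoE33 counts (7.36 without EoE33 replicate 2). EoE33 replicate 2 held 65.9% of its summed EoE33 CPM. Its count ratio was 408, with an exact 95% interval of 112 to 3374. This interval, like those of the count ratios below, pools the counts of each group. It holds counting error alone and not the spread between mice.

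Among kappa V segments, Igkv15-103 stood at 0.636, 0.132, 1.18 and 1.33 CPM in wild type and at 22.8, 141, 245 and 1.35 CPM in EoE33. EoE33 replicate 4 lay barely above wild type replicate 4, and the groups did not overlap (124-fold, log2 fold change 6.95 ± 1.58 (SE), edgeR adjusted p = 0.00591; 0.273 with limma-voom; log2 fold change 6.06 without EoE33 replicate 3). Igkv4-57 instead was highest in EoE33 replicate 4, at 158 CPM, with 6.43 to 11.4 CPM in the other 3 (133-fold, edgeR adjusted p = 0.00526, 0.0973 with limma-voom; log2 fold change 7.06, or 4.70 without EoE33 replicate 4). Igkv16-104 peaked in EoE33 replicate 2 at 149 CPM against 6.16 to 18.1 CPM in the others (107-fold, edgeR adjusted p = 0.00579, 0.102 with limma-voom; log2 fold change 6.75, 4.72 without EoE33 replicate 2 and 7.89 without wild type replicate 4). Igkv12-44 was highest in EoE33 replicate 1, at 46.5 CPM against 6.42 to 14.8 CPM in the others and at most 1.03 CPM in wild type (58.4-fold, edgeR adjusted p = 0.00165; log2 fold change 5.87, 4.99 without EoE33 replicate 1 and 7.55 without wild type replicate 4).

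Igkv1-117 and Igkv19-93 differed in evenness. Igkv1-117 was the most even of the 6 kappa segments with the highest means, at 27.2, 49.3, 23.2 and 21.7 CPM in EoE33 and at 0.170, 0.219, 10.4 and 1.20 CPM in wild type (10.1-fold, edgeR adjusted p = 0.024; log2 fold change 3.33, or 5.84 without wild type replicate 3; adjusted p = 0.0692 without wild type replicate 4 and 0.0711 without the filter on low counts). Igkv19-93 stood at 43.9, 86.0, 15.9 and 1.35 CPM in EoE33, and its lowest library fell below the 4.44 CPM of wild type replicate 3 (26.4-fold, edgeR adjusted p = 0.0187; log2 fold change 4.72, 6.67 when wild type replicate 3 was left out and 3.90 without EoE33 replicate 2). Its adjusted p was 0.0585 without wild type replicate 4, 0.0585 without the filter, 0.0801 with a replicate block and 0.178 with limma-voom.

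Usage, the share of a segment in the V counts of its locus, showed a different leading segment in most EoE33 mice, as it did in wild type mice. In the heavy chain Ighv4-1 led in replicate 1 (11.9%), Ighv7-1 in replicates 2 and 3 (29.8% and 42.9%) and Ighv1-82 in replicate 4 (27.0%). In the kappa chain Igkv12-44 led in replicate 1 (8.82%), Igkv16-104 in replicate 2 (12.04%), Igkv15-103 in replicate 3 (41.7%) and Igkv4-57 in replicate 4 (37.3%). EoE33 replicate 1 was the most even, with an effective number of segments (the inverse of the summed squared shares) of 19.7 in the heavy and 21.8 in the kappa chain, and replicate 3 the least even, with 5.14 and 5.31. The heavy leaders in wild type replicates 1 to 4 were Ighv7-1, Ighv14-4, Ighv8-12 and Ighv5-17 (level with Ighv1-80). The kappa leaders there were Igkv15-103, Igkv2-137, Igkv1-117 and Igkv5-43. In wild type the effective numbers were 15.7 to 23.0 and 12.6 to 32.9, from 44 to 946 heavy and 55 to 1467 kappa V counts. The heavy usage of EoE33 pairs overlapped by 34.7% (replicates 2 and 4) to 60.1% (replicates 2 and 3), and the kappa usage by 34.8% (replicates 3 and 4) to 48.4% (replicates 2 and 3). Median heavy overlap was 44.7% in EoE33 pairs, 34.8% in wild type pairs and 37.8% between the groups. The kappa medians were 43.9%, 45.8% and 43.8%. Wild type replicates 1 and 2 held only 48 and 44 heavy and 60 and 55 kappa V counts, and counting error at such numbers can lower an overlap. Overlaps were not computed at equal counts, so these medians do not show whether partial overlap is particular to EoE33.

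Most V members nonetheless had counts in every EoE33 mouse. The member rule sums counts over the 8 libraries, and most of these counts lay in EoE33. Presence in EoE33 is thus partly fixed by the rule and is a description only. The members are 85 of 113 annotated heavy V and 83 of 102 annotated kappa V segments. Of 85 heavy V members 75 to 84 had at least 1 count in an EoE33 library and 20 to 67 in a wild type library, and of 83 kappa V members 75 to 78 and 24 to 69. Thinned to 55 kappa V counts in each library, 19.96 to 25.4 kappa segments were detected in EoE33 and 23.1 to 30.1 in wild type, so the excess seen at full depth was not seen at equal counts. The heavy chain was not thinned because 44 counts in wild type replicate 2 were too few. Among the 138 V members with counts in all EoE33 libraries, the highest library exceeded the lowest by a median of 10.8-fold. The median was 4.09-fold for constant genes and 1.35-fold over all genes tested. These sets are unlike in level: the V members include segments of low count that failed the filter, and counting error widens their ratios. Of 117 V members with at least 100 counts in EoE33, 76 had over 50% of their summed EoE33 CPM in 1 library. Of those 76, 34 had it in replicate 2. That library also held the most immunoglobulin CPM, 7989 against 2957 to 3885 in the other EoE33 libraries, so nothing is read from the 34. The same share over all genes was not computed.

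**Figure D4:**
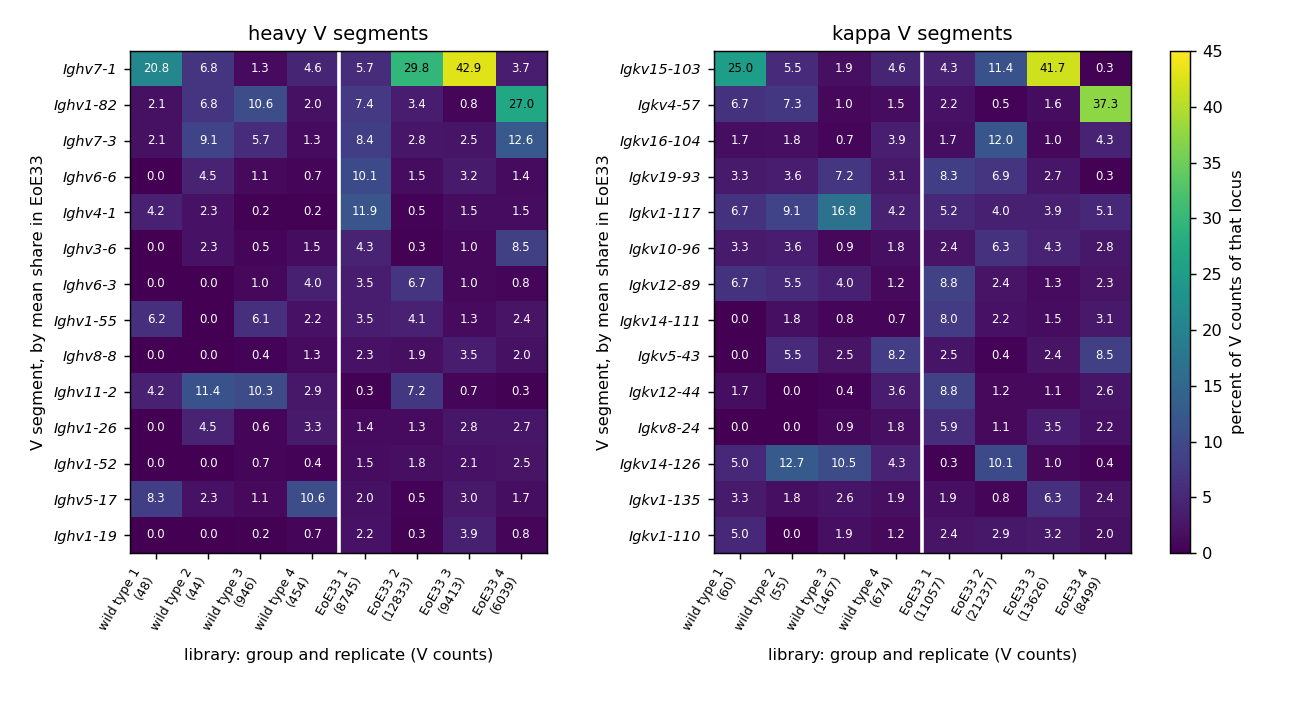
Share of each V segment in the V counts of its locus (percent, colour and printed number) in each library, for the 14 heavy and 14 kappa segments with the highest mean share in EoE33; V counts of each library stand in parentheses. Ighv7-1 makes 42.9% and Igkv15-103 41.7% in EoE33 replicate 3, and Ighv1-82 makes 27.0% and Igkv4-57 37.3% in replicate 4.

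By V family, the large Ighv1 family took 38.6% to 49.3% of heavy V counts in wild type and 25.2% to 51.4% in EoE33. The 2 members of Ighv7 took 5.95% to 22.9% and 14.1% to 45.4%. Of the 18 tested Ighv1 members 15 were called higher, beside 31.3% of all genes. All 4 tested members of Ighv5 and both of Ighv2, Ighv6, Ighv7 and Ighv10 were called, as were the single ones of Ighv4, Ighv9 and Ighv13, 2 of 3 in Ighv14, 1 of 2 in Ighv3 and in Ighv8, and 0 of 1 in Ighv11; no Ighv12 member was tested. Ighv5-17, the highest of Ighv5, stood at 8.34, 3.86, 12.2 and 5.19 CPM in EoE33 and at 0.0439 to 2.05 CPM in wild type (10.96-fold, edgeR adjusted p = 0.00755; log2 fold change 3.45, or 5.09 without wild type replicate 4). Ighv8-8 had one of the most even rises, to 9.44, 14.1, 14.3 and 6.08 CPM from at most 0.257 CPM (97.6-fold, log2 fold change 6.61 ± 0.63 (SE), edgeR adjusted p = 3.02e-05; 7.45 without wild type replicate 4). In the kappa chain, Igkv4 took 16.4% to 22.6% in wild type and 7.83% to 10.9% in EoE33 replicates 1 to 3, but 46.7% in replicate 4.

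Segments of textbook natural antibodies, which B-1 cells make without immunisation, behaved unequally. Ighv11-2 and Igkv14-126 form a known pair of antibodies against phosphatidylcholine. Ighv11-2 stood at 1.38, 54.4, 2.84 and 1.05 CPM in EoE33 and at 0.0848, 0.219, 4.10 and 0.556 CPM in wild type, and Igkv14-126 at 1.48, 126, 5.77 and 1.89 CPM in EoE33 and at 0.127, 0.307, 6.51 and 1.24 CPM in wild type. Both were high in EoE33 replicate 2 and, within wild type, in replicate 3, and neither was called (log2 fold change 3.56 and 4.02, edgeR adjusted p = 0.0912 and 0.0791); their log2 fold changes were 0.53 and 0.60 without EoE33 replicate 2 and 5.67 and 5.90 without wild type replicate 3. As a share of heavy V counts Ighv11-2 took 4.17%, 11.4%, 10.3% and 2.86% in wild type replicates 1 to 4 and 0.332%, 7.25%, 0.701% and 0.348% in EoE33 replicates 1 to 4. As a share of kappa V counts Igkv14-126 took 5.0%, 12.7%, 10.5% and 4.30% in wild type and 0.280%, 10.1%, 0.983% and 0.447% in EoE33. EoE33 replicate 2 alone reached the wild type range in both, and wild type replicates 1 and 2 rest on few V counts. Ighv12-3, another segment of such antibodies, with 35 wild type and 18 EoE33 counts, was not tested. Igkv7-33, the textbook partner of Ighv7-1 in antibodies against phosphorylcholine, stood at 5.24, 9.35, 0.603 and 9.03 CPM in EoE33, and was lowest in replicate 3, where Ighv7-1 had its highest share (222-fold rise on 2 wild type counts, edgeR adjusted p = 0.000527; count ratio 267, exact 95% interval 73.5 to 2212).

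J segments, which are 38 to 100 bases long in the annotation, gave few counts. The 4 heavy J members held 39 wild type and 556 EoE33 counts, and all 4 were called higher, beside 31.3% of all genes. Wild type replicates 1 to 4 held 3, 0, 21 and 15 of these counts. The calls of the heavy J members, and of the kappa J members below, are thus a description only. Ighj1 stood at 3.53, 4.62, 2.24 and 0.798 CPM in EoE33 and had 3 counts in wild type, all in replicate 3 (count ratio 84.6, exact 95% interval 28.6 to 413; edgeR adjusted p = 0.000313; log2 fold change 6.20, or 8.92 without wild type replicate 3). Ighj4, Ighj2 and Ighj3 had log2 fold changes of 3.5, 4.04 and 2.80 (edgeR adjusted p = 0.00657, 0.00204 and 0.00276); those of Ighj4 and Ighj2 were 4.33 without wild type replicate 4 and 7.64 without wild type replicate 3. Ighj1 made 55.2%, 37.1%, 41.3% and 19.3% of the heavy J counts in EoE33 replicates 1 to 4, and in replicate 4 Ighj2 led with 33.7%. Of 5 kappa J members, Igkj2 and Igkj5 were tested and called (log2 fold change 2.89 and 2.60, edgeR adjusted p = 0.0115 and 0.0154; 3.56 for Igkj2 without wild type replicate 3 and 3.25 for Igkj5 without wild type replicate 4), and the call of Igkj5 was lost with a replicate block (adjusted p = 0.0596). The lambda segments Iglj1 and Iglj3 had 27 and 9 counts in EoE33 and were not tested. How reads that span V, J and C segments were assigned is not given in the sources used here.

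Jchain and the genes of a plasma cell list were higher in EoE33, as the members were. Jchain stood at 0.975, 0.965, 25.02 and 11.5 CPM in wild type and at 313, 502, 301 and 248 CPM in EoE33, a 35.3-fold rise without overlap (log2 fold change 5.14 ± 1.05 (SE), edgeR adjusted p = 0.00347; 6.26 without wild type replicate 3). All 13 genes of the plasma cell list were tested and called higher, beside 31.3% of all genes. Their median log2 fold change was 1.61 against -0.01 over all genes. With a replicate block 10 were called, and without wild type replicates 1 and 3 also 10. Derl3, a gene of protein degradation from the endoplasmic reticulum, rose from 0.491 ± 0.244 to 7.503 ± 1.39 CPM (15.1-fold, edgeR adjusted p = 8.98e-06). Tnfrsf17, which encodes the plasma cell receptor BCMA, stood at 0 to 0.171 CPM in wild type and at 0.715, 2.16, 1.38 and 0.648 CPM in EoE33. Mzb1, a chaperone gene of antibody assembly, stood at 0.482 to 2.58 and at 5.93 to 18.6 CPM. Xbp1, the transcription factor of the secretory programme, Txndc5 and Sdc1 rose 1.96-fold, 2.04-fold and 1.68-fold from wild type means of 184, 107 and 306 CPM. Summed, the 13 genes of the list stood at 667, 675, 755 and 682 CPM in wild type replicates 1 to 4. This sum, which genes of high level such as Sdc1 and Xbp1 dominate, thus did not follow the 19.3-fold spread of the members over these libraries. Gene by gene, wild type replicates 3 and 4 lay above replicates 1 and 2 in 9 of the 13, Jchain among them, against 15.9% of all genes tested. Which cells hold these transcripts was not tested. Of the 13 calls 2 were narrow. Pou2af1 and Prdm1 had edgeR adjusted p-values of 0.0489 and 0.047, and each lost its call in 6 of the 8 fits that left out 1 library. Between 10 and 13 of the list were called in those fits.

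Genes of mature B cells showed no call for a rise. Of 17 genes in a B cell list, 14 were tested, 0 were called higher and 1 lower, and their median log2 fold change was 0.33. At an unadjusted p under 0.05, 0 were higher, and DESeq2 and limma-voom also called 0 higher. That median was 1.5 with limma-voom, and -0.05 and -0.03 without wild type replicates 1 and 2 in turn. Ms4a1, which encodes the B cell surface protein CD20, stood at 0.339, 0.132, 8.20 and 6.67 CPM in wild type replicates 1 to 4 and at 3.05, 16.4, 8.10 and 1.35 CPM in EoE33 replicates 1 to 4. Wild type replicates 3 and 4 thus reached the EoE33 range while replicates 1 and 2 lay below it (log2 fold change 0.90 ± 1.16 (SE), edgeR adjusted p = 0.523). The 95% interval of this log2 fold change runs from -1.81 to 3.61, so the gene is not shown to be unchanged. Its log2 fold change was 1.60 when wild type replicate 3 was left out and 0.15 without EoE33 replicate 2. Cr2 and Fcer2a, genes of complement and IgE receptors on naive B cells, were not tested, with 101 and 164 wild type counts and 30 and 45 EoE33 counts. Fcrla, Fcmr and Cd37 had log2 fold changes of 1.58, 1.41 and 0.48 (edgeR adjusted p = 0.14, 0.195 and 0.349). The gene called lower was Ebf1, an early B cell factor that stromal cells also express, from 45.4 ± 4.91 to 12.7 ± 3.46 CPM (log2 fold change -1.83, edgeR adjusted p = 4.22e-05).

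**Figure D5:**
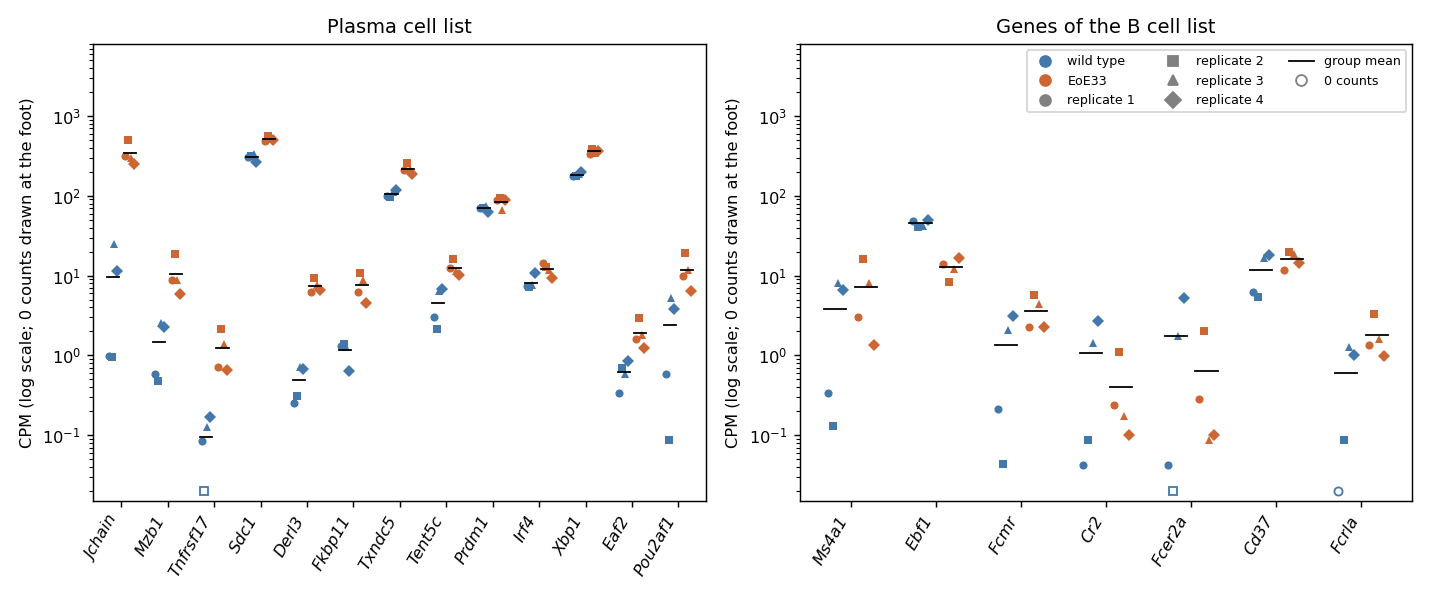
CPM (log scale) of the 13 genes of the plasma cell list (left) and of 7 genes of the B cell list that are named in the text (right) in each library; black bars are group means and open symbols 0 counts. Jchain, Mzb1 and Derl3 lie above all wild type libraries in every EoE33 library, whereas Ms4a1 in wild type replicates 3 and 4 lies within the EoE33 range.

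Genes of the germinal centre, where B cells mutate and class-switch their antibodies, showed 1 call among the 4 tested of 7 listed (25%), beside 31.3% of all genes; fitted without the filter on low counts, 2 of the 7 were called. Ung, a DNA repair gene of all dividing cells that also acts in switching, rose 3.54-fold, from 3.45 ± 0.375 to 12.2 ± 2.68 CPM (edgeR adjusted p = 2.28e-05). Gcsam, S1pr2 and Bcl6 were not called (log2 fold change 1.28, -0.10 and -0.31, edgeR adjusted p = 0.104, 0.365 and 0.366); Gcsam was called without wild type replicate 4 (adjusted p = 0.0482). Of the V(D)J recombination genes, Rag2 and the surrogate light chain gene Vpreb2 had 0 counts in all libraries, Rag1 had 28 wild type and 9 EoE33 counts, and none of the 6 was tested.

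Of 21 genes of B and plasma cell survival and homing, 15 were tested and 7 were called higher, beside 31.3% of all genes; from this count nothing is read about the list. Tnfsf13b and Tnfsf13, the cytokines BAFF and APRIL that keep B lineage cells alive, rose 4.72-fold and 2.33-fold without overlap (edgeR adjusted p = 0.000279 and 0.000543), and their receptor gene Tnfrsf13b rose 2.52-fold. Tnfsf13b stood at 0.805 to 1.88 CPM in wild type and at 4.34, 8.48, 6.94 and 4.39 CPM in EoE33. Il6, a plasma cell survival cytokine, had a single wild type count and 149 EoE33 counts (count ratio 171, exact 95% interval 30.3 to 6805). Tgfb1, the factor of IgA switching, Cxcr4, the receptor that holds plasma cells in tissue, and the integrin gene Itgb7 rose 2.20-fold, 3.51-fold and 2.09-fold. Cxcl13, the B cell attracting chemokine of lymphoid follicles, was not called (log2 fold change -0.17, edgeR adjusted p = 0.875) and was high in wild type replicates 3 and 4, at 15.6 and 10.6 CPM; without replicate 3 its log2 fold change was 0.57. Ccl28, a chemokine for IgA plasma cells, had 31 wild type and 5 EoE33 counts.

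Of 11 genes of immunoglobulin receptors and transport, 7 were called higher and 1 lower, beside 31.3% and 32.1% of all genes. Fcamr, which encodes a receptor for IgA and IgM, rose from 2.28 ± 0.118 to 11.3 ± 2.57 CPM (4.93-fold, edgeR adjusted p = 6e-06). Fcgr4 and Fcgr2b, an activating and the inhibitory IgG receptor, rose 13.4-fold and 3.58-fold. Fcgrt, which encodes the neonatal Fc receptor that protects IgG from degradation, fell from 65.6 ± 8.59 to 42.4 ± 2.25 CPM (log2 fold change -0.63, edgeR adjusted p = 0.000377). Pigr, the receptor that carries IgA and IgM across epithelia, stood at 2.12, 0.351, 10.8 and 0.171 CPM in wild type and at 8.49, 58.6, 11.2 and 3.74 CPM in EoE33. Its groups overlapped through wild type replicate 3, the library with airway transcripts, and it was not called (log2 fold change 2.60 ± 1.27 (SE), edgeR adjusted p = 0.109); without that library it was called (log2 fold change 4.53, edgeR adjusted p = 0.0245), and its log2 fold change was 1.24 without EoE33 replicate 2.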

How the data were processed

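PolyA-selected RNA of whole esophagus from 8 mice was sequenced in paired-end mode, per the labels' protocols. The authors deposited raw counts per gene. Per the submitters' processing notes, which state no roles, the tools were Trimmomatic 0.36, STAR 2.5.2b, featureCounts and Subread 1.5.2, with build GRCm38. The sources used here give neither strand use nor annotation release, so antisense overlaps cannot be told apart. Columns were assigned by the spreadsheet column letter in each sample's description; 0 columns were left unmapped. GENCODE M21 matched 49056 of 49315 identifiers. No 2 libraries of the same group agreed within sampling noise.

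Counts were fitted over all 16760 genes passing filterByExpr with edgeR 4.0.16 (R 4.3.3; TMM, robust glmQLFit, glmQLFTest, Benjamini-Hochberg), genotype being the term. CPM use TMM-scaled library sizes. The procedure was tested on simulated data for this design. That simulation gave all genes the same dispersion and changed no genes of low count. It thus does not test the calls of members that vary widely between mice or have few wild type counts. Standard errors come from the F statistic. Alternatives used DESeq2 1.42.0, limma 3.58.1 (voom), other scalings and filters, a replicate block, and leaving out libraries. Ratios to Ighm or Igkc (log2 of counts plus 0.5), folds of summed CPM without 1 library, J usage and the counts of V segments concentrated in 1 library were added after values were seen.

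Members, gene lists and the naming rule were chosen with earlier results of these data known. The rule names all constant genes, Jchain, Il33, the 6 V and 2 J segments of highest mean CPM per locus, the highest V segment of a described family, any member called lower, the 4 smallest p-values per list, and list genes at 0. Other genes (such as Igkv12-44, Ighv1-63, Ighj2, Tnfrsf17, Mzb1, Ms4a1, Pigr) were chosen after their values were seen. P-values measure the spread between mice, and the exact intervals of shares and of count ratios hold counting error alone. A search of V promoters for the octamer was planned and not run. Some genes of the lists are counted in them and not reported singly here.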

Additional observations from a re-analysis of the deposited data

Results flagged for a closer look

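In 13 of 90 groups of 4 libraries examined, 1 library stood far from the other 3 (Dixon's test; chance flags about 1 in 20 groups). In wild type replicate 3, the library with airway transcripts, Ighv1-82 stood at 4.23 CPM (others at most 0.385), Ighv7-3 at 2.28, Ighv11-2 at 4.10, Igkv1-117 at 10.4, Ighj1 at 0.127 and Iglj1 at 0.169 CPM, the latter 2 being at 0 in the other 3. In wild type replicate 4, Ighg2b stood at 2.65 CPM against 0.212 to 0.338.

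In EoE33 replicate 2, the highest in summed immunoglobulin CPM, Ighm stood at 3690 CPM (to 3 digits), Ighv11-2 at 54.4, Igkv16-104 at 149 and Igkv14-126 at 126 CPM. Igkv4-57 stood at 158 CPM in EoE33 replicate 4 and Iglv3 at 4.65 CPM in EoE33 replicate 3, against 0.947 to 1.58. Outside the rule, the annotated pseudogene Igkv2-116 had 13 counts, all in EoE33 replicate 2, and 0 in the wild type libraries.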

How the results depend on the processing

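Of the 104 tested members, 85 were called higher; the count was 85 with DESeq2 size factors, 85 with library size only, 82 with DESeq2, 73 with limma-voom, 72 with a replicate block, 98 of 109 when a mean CPM of 1 or more was required, and 76 to 89 when 1 library was left out. Without wild type replicates 1 and 3 it was 70, and 0 members were lower in any of these fits. Over all genes the calls were 5238 higher and 5383 lower, and 4936 and 5120 with the replicate block. Same-numbered libraries correlated at 0.12, -0.13, 0.06 and -0.13 in their deviations, so the numbers were not taken as pairs. The direction of Ighd turned with limma-voom (0.46) and without wild type replicate 4 (0.62), and its log2 fold change ranged from -1.49 to 0.62 when 1 library was left out; the cause was not tested. The log2 ratio of summed lambda J CPM lay between 1.93 and 3.34 when 1 library was left out. The number of kappa V segments detected, EoE33 minus wild type, was 31.0 at full depth and -3.27 when thinned to equal counts. Why the sign turned was not tested. Depth limits the wild type shares: replicates 1 and 2 held 655 and 490 immunoglobulin counts.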

Other observations

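T cell receptor segments, which are joined from V and J segments in the same way, gave far fewer counts than immunoglobulin segments. Of them, 14 reached 10 counts and 5 passed the filter; 3 were called higher, beside 31.3% of all genes, with a median log2 fold change of 1.08. Trac and Trbc2, the constant genes of the alpha and beta chains, stood at 1.01 ± 0.672 and 0.844 ± 0.70 CPM in wild type and at 2.13 ± 0.524 and 2.36 ± 0.491 CPM in EoE33 (SD, n = 4 each; edgeR adjusted p = 0.0406 and 0.0196). The call of Trac ended in 6 of the 8 fits that left out 1 library (adjusted p of 0.0692 to 0.101: wild type replicates 1, 2 and 3, EoE33 replicates 1, 3 and 4), and that of Trbc2 in 2 (0.0547 without wild type replicate 1, 0.0505 without EoE33 replicate 3). Of 10 T cell genes 4 were called higher, beside 31.3% of all genes. That count was 6 with DESeq2, 7 with limma-voom, 8 without wild type replicate 4, 1 without wild type replicate 1, 2 without wild type replicate 2 or EoE33 replicate 1, 3 or 4, and 0 without wild type replicates 1 and 3. Among the 4 was Cd3g (log2 fold change 2.13, edgeR adjusted p = 0.0108; 3.35 without wild type replicate 4, and adjusted p = 0.0649 without wild type replicates 1 and 3).

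Of the 89 members not tested, Igkv6-17 held the most counts, 983, of which 804 lay in EoE33 replicate 2. Igkv13-84 and Ighv2-4 had 99.2% and 99.3% of their summed EoE33 CPM in that library.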
